A study of Mus musculus with 19 samples.

Results

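The genes described here are Trp53, which encodes the transcription factor p53, and 9 of its best known target genes: Cdkn1a, Mdm2, Bax, Bbc3, Ccng1, Phlda3, Trp53inp1, Eda2r and Zmat3. They were taken by symbol, through their Ensembl IDs, from the 46078 genes of an RNA-seq table of mouse mammary glands and mammary tumors, and all 10 were found in it once. The table holds 19 libraries in 5 groups. MGWT (n = 3) are mammary glands of wild type mice, described as age-matched. MGN (n = 4) and MGNP (n = 4) are glands without a malignant lesion from tumor-bearing mice, and TN (n = 4) and TNP (n = 4) are mammary tumors. All mice outside MGWT carried MMTV-neu, which expresses the receptor ERBB2 in mammary epithelium. NP mice (MGNP and TNP) were labelled MMTV-neu;p53wm-R172H/+;Fsp-Cre. Their p53wm-R172H allele makes wild type p53 until Cre turns it into the R172H mutant, and Fsp-Cre drives Cre in fibroblasts. All 4 TN samples and MGN replicate 1 were labelled MMTV-neu;Fsp-Cre, whereas MGN replicates 2, 3 and 4 were labelled MMTV-neu;p53wm-R172H/+, without Cre. By design NP mice differ from N mice in making mutant p53 in fibroblasts. The tumor cohort was of females on a mixed FVB/C57/BALB/c background, and each library is bulk tissue in which fibroblasts are 1 of several cell types. Reads of both Trp53 alleles were counted together, so the share of R172H transcripts was not measured here.

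p53 is kept low in unstressed cells by MDM2, a ubiquitin ligase that marks it for degradation and whose own gene p53 activates. DNA damage and oncogene activity release p53, which then binds response elements made of a pair of similar decamers and induces genes for cell cycle arrest, apoptosis and repair. In the mammary gland and in breast cancer p53 is best known as a tumor suppressor that is frequently mutated, and mutant protein can accumulate without driving these targets. Among the genes described here, Cdkn1a encodes the cyclin-dependent kinase inhibitor p21. Mdm2 and Ccng1, which encodes cyclin G1, act back on p53. Bax and Bbc3, which encodes PUMA, promote mitochondrial apoptosis. Phlda3 encodes an inhibitor of AKT, Trp53inp1 a stress-induced p53 cofactor and autophagy protein, Eda2r a receptor of the TNF receptor family, and Zmat3 an RNA-binding zinc finger protein.

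The promoter letters are shown for the 2 genes whose windows held a pair of p53 decamers, since of the 10 genes Cdkn1a fell the most and Ccng1 rose the most in the glands of MMTV-neu mice against MGWT. RefSeq promoter windows (GRCm38.p6, 250 bases before to 50 after a transcript start) were listed for 8 of the 10 genes, in 11 windows. Both stretches below lie upstream of the transcript start and outside the annotated gene, are written 5′ to 3′ on the gene's strand, and have the decamers in capitals. The Cdkn1a stretch is chr17:29090869-29090968 on the plus strand, from base -110 to base -11, and the Ccng1 stretch is chr11:40755437-40755536 on the minus strand, from base -250 to base -151.
Cdkn1a: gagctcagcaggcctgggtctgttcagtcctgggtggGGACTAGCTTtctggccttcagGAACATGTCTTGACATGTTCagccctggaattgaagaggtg
Ccng1: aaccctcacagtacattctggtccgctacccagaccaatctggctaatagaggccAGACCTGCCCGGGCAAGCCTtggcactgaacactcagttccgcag
The motif searched was the p53 decamer consensus, which is the same on both strands, with its fixed C and G at positions 4 and 7. A pair was 2 decamers that do not overlap, with at most 13 bases between them. In Cdkn1a, GGACTAGCTT (-73 to -64) and GAACATGTCT (-51 to -42) matched with 0 mismatches and 12 bases between them. The adjoining TGACATGTTC (-41 to -32) had 1 mismatch. In Ccng1, AGACCTGCCC (-195 to -186), with 1 mismatch, adjoined GGGCAAGCCT (-185 to -176). A pair with 0 mismatches stood in 0.0731% of all 32851 windows (24 windows), and a pair with at most 1 mismatch in 0.627% (206 windows). A single decamer with 0 mismatches was found in 5 of the 11 windows (Trp53, Cdkn1a, Mdm2, Bax and Ccng1) against 8.36% of all windows, for example GAACTTGCCT in Mdm2 (-186 to -177). These matches are letters in a window and not sites of measured binding.

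Values are DESeq2-normalized counts deposited by the authors, from which whole reads could be recovered. MGWT libraries held 54677315 to 62645459 reads and the other 16 libraries 20899152 to 27262440, so the depth differed with the group. In the library with the fewest reads for it, each gene had between 35 reads (Bbc3) and 2815 reads (Ccng1). Some marker lists also moved with the groups. The 9 luminal epithelial markers summed to 83924 to 99386 normalized counts in MGWT, 14303 to 29057 in MGN, 9445 to 28395 in MGNP, 104540 to 187981 in TN and 110446 to 148193 in TNP, and all 9 reached 10 counts in every library. The 9 adipocyte markers summed to 4003 to 5441 in MGWT, 300271 to 411034 in MGN, 148248 to 388588 in MGNP, 1594 to 9156 in TN and 3090 to 5005 in TNP. Lep and Plin1 were at 0 in at least 1 TN library. MGWT therefore held few adipocyte transcripts for a whole gland. The 7 immediate-early genes, such as Fos and Egr1, summed to 317628 to 407334 in MGWT and to 2003 to 8379 in the other groups. The 10 skeletal muscle markers summed to 97.1 to 117 in MGWT, where Tnnc2 was at 0 in at least 1 library, to 321 to 15675 in MGN, to 235 to 26658 in TN and to 99.8 to 5782 in TNP. In MGNP all 10 reached 10 counts in every library, with sums of 10415 to 2491850. MGNP replicates 2 and 4 were the richest in them, at 7.27% and 3.93% of normalized counts. The 9 fibroblast markers summed to 39390 to 65264 in MGWT, 146831 to 490458 in MGN, 66970 to 154006 in MGNP, 29243 to 269736 in TN and 27087 to 55941 in TNP, with 8 or 9 of them at 10 counts or more in every library of a group. S100a4 (Fsp1), which gives Fsp-Cre its name, was at 0 in at least 1 TN library. The 6 macrophage markers summed to 2687 to 3581 in MGWT, 16555 to 43492 in MGN, 10297 to 16913 in MGNP, 7225 to 16868 in TN and 8002 to 12278 in TNP, and all 6 reached 10 counts in every library. The part of these lists in the results below was not tested unless a value is given.

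Differences are log2(normalized count + 1) of the first group minus the second, tested with limma, 2-sided, and a gene is said to rise or fall only at an adjusted p below 0.05 over all genes tested. In bulk tissue, fewer cells of a type and less RNA per cell cannot be told apart. Between MGN and MGWT 8 of the 10 genes passed, 2 higher and 6 lower, where 59.1% of all 19017 genes tested passed (30% higher and 29.2% lower). Between MGNP and MGWT 5 passed, 1 higher and 4 lower, where 46.4% of all genes did (22.4% higher and 24% lower). Between TN and MGN 5 passed, 4 higher and 1 lower, against 51.3% of all genes (23.5% higher and 27.8% lower). Between TNP and MGNP 3 passed, 2 higher and 1 lower, against 55.5% (26.2% higher and 29.3% lower). Passing the threshold was thus common among genes in general. Against MGWT, 3 genes passed in TN, 1 higher and 2 lower, where 56.3% of all genes did (25.7% higher and 30.6% lower). In TNP 4 passed, 2 higher and 2 lower, where 69.7% did (32.7% higher and 37% lower). With a 2-fold minimum as well, 5, 5, 3, 1, 1 and 3 genes passed in these 6 comparisons in turn, against 37%, 32.6%, 35.1%, 38.7%, 42.5% and 47.8% of all genes. Between MGNP and MGN, and between TNP and TN, none passed, as detailed below. Groups did not overlap for 8, 5, 4, 3, 3 and 4 of the 10 genes in the same 6 comparisons, where 61.3%, 54.4%, 49.2%, 52.6%, 60.7% and 69.9% of all genes did not. Comparisons with MGWT share the same 3 glands. By mean level MGWT was the highest group for 5 of the 10 genes (Trp53, Cdkn1a, Mdm2, Bbc3 and Zmat3). Across the orders of all 10 genes, 36 of 40 neighboring group pairs overlapped. The 4 gaps were Bax in TNP above MGWT, Bbc3 in TNP above MGNP, Ccng1 in MGN above MGWT and Zmat3 in MGWT above TN.

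**Figure D1:**
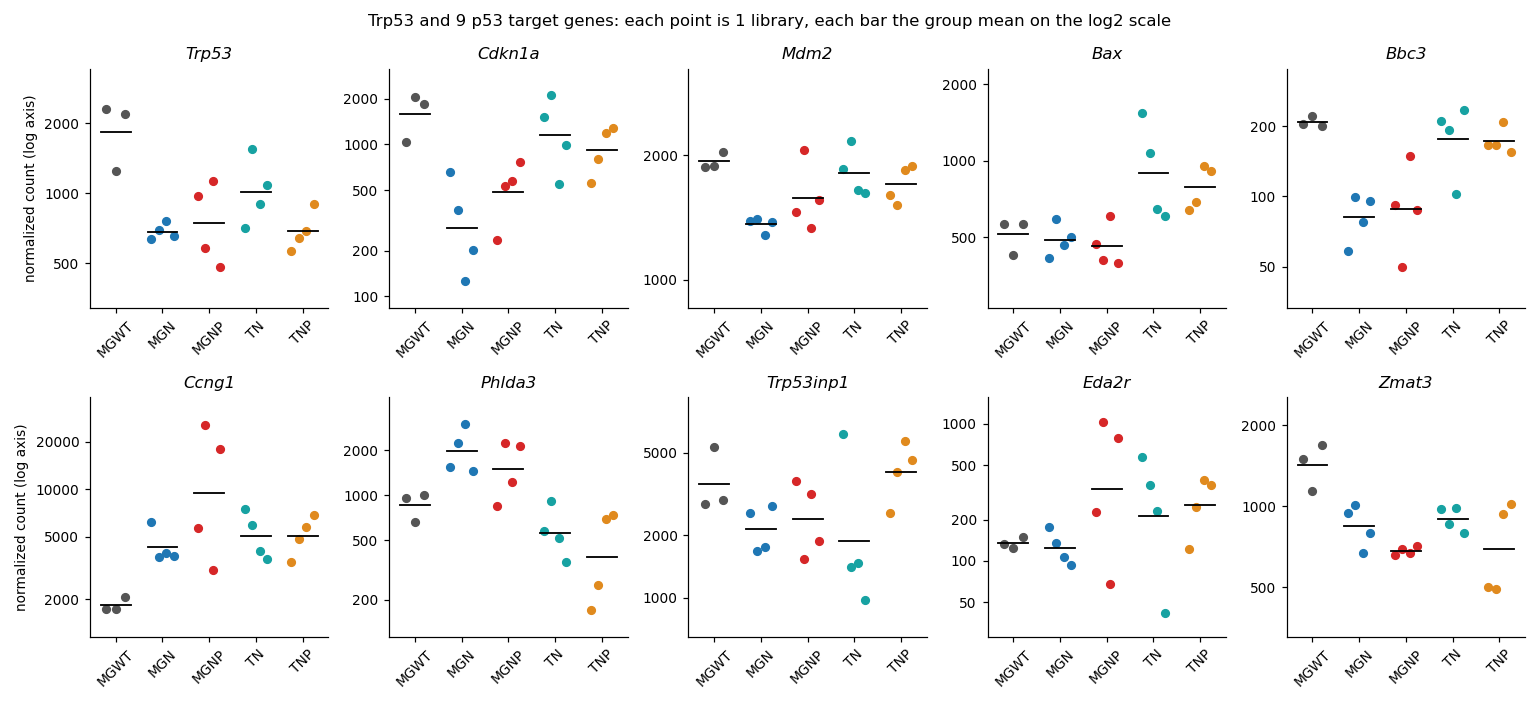
Normalized counts (log axis) of Trp53 and 9 p53 target genes in the 19 libraries, 1 point per library, by group, with the group mean of log2 values as a bar. Ccng1 reached 25575 and 18136 in MGNP replicates 2 and 4, and Mdm2 stayed between 1281 and 2162 in all libraries.

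Trp53 (ENSMUSG00000059552, chr11:69580359-69591873, plus strand, GRCm38) is the targeted gene. It had 2297, 1243 and 2207 normalized counts in MGWT. In MGN it had 636, 696, 764 and 653, and in MGNP 976, 581, 1135 and 483. Every gland of the MMTV-neu mice lay below every wild type gland, with a narrow range in MGN and a wider one in MGNP. TN tumors had 708, 1554, 900 and 1083, and TNP tumors 567, 640, 688 and 896. All TNP tumors lay below every wild type gland, while TN replicate 2 overlapped with MGWT. Trp53 was 2.69-fold lower in MGN than in MGWT (log2 difference -1.43 ± 0.21 SE, adjusted p = 0.00071) and 2.47-fold lower in MGNP (-1.31 ± 0.36, adjusted p = 0.0216). Against MGWT it was also 2.68-fold lower in TNP (-1.42 ± 0.24, adjusted p = 0.000829) and 1.81-fold lower in TN (-0.86 ± 0.32, adjusted p = 0.0483). The MGNP difference was -0.81 ± 0.28 (0.0467) without MGNP replicates 2 and 4. The TN call was lost in edgeR (adjusted p = 0.0578), with TMM scaling (0.0543), with a filter at a mean of 50 (0.0502) or none (0.0582), and without MGWT replicate 1 or 3 or TN replicate 1, 3 or 4 (up to 0.163), and the MGNP call without MGWT replicate 1 (0.085) or 3 (0.0831). The difference of TN from MGN was 0.57 ± 0.23 and missed the threshold (adjusted p = 0.0657), though it passed with TMM scaling (0.0449), in edgeR (0.0463) and DESeq2 (0.0314) and without TN replicate 1 (0.0164). That of TNP from MGNP was -0.12 ± 0.29. Without the muscle-rich MGNP replicates 2 and 4, which were the lowest MGNP libraries for Trp53, it became -0.61 ± 0.20 (adjusted p = 0.0373).

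Mdm2 (ENSMUSG00000020184, chr10:117688875-117710758, minus strand), the feedback inhibitor of p53, was the steadiest of the 10 genes. It had 1878, 1888 and 2036 counts in MGWT, and 1387, 1400, 1281 and 1376 in MGN, so the groups were well apart for a small change. It was 1.42-fold lower in MGN (log2 difference -0.51 ± 0.09, adjusted p = 0.00195). MGNP had 1455, 2058, 1331 and 1555, with the muscle-rich replicate 2 above all wild type glands. Its difference from MGWT was -0.29 ± 0.17 (adjusted p = 0.186), and -0.47 ± 0.12 (0.0178) without MGNP replicates 2 and 4, or -0.42 ± 0.13 (0.0421) without replicate 2 alone. TN tumors had 1856, 2162, 1644 and 1620 counts, all above every MGN gland, and TNP tumors 1605.5, 1514, 1846 and 1880. Mdm2 was 1.33-fold higher in TN than in MGN (0.41 ± 0.13, adjusted p = 0.0258). This call was lost without any 1 of the 4 MGN glands (adjusted p up to 0.0708). The difference of TNP from MGNP was 0.11 ± 0.16 (adjusted p = 0.575).

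Cdkn1a (ENSMUSG00000023067, chr17:29090976-29100727, plus strand), the classical arrest target, moved the most among the genes that fell in the glands. The perfect decamer pair shown above stood in the window at its upstream transcript start. Its other window, chr17:29093519-29093818, held 0 decamers without a mismatch and 0 pairs. Cdkn1a had 1044, 2056 and 1856 counts in MGWT. In MGN it had 657, 368, 126 and 202, and in MGNP 236, 537, 571 and 762. All 8 glands of MMTV-neu mice lay below the 3 wild type glands. Cdkn1a was 5.64-fold lower in MGN (log2 difference -2.50 ± 0.53, adjusted p = 0.00403) and 3.27-fold lower in MGNP (-1.71 ± 0.42, adjusted p = 0.0141). The MGNP call was lost without MGWT replicate 2 (0.0586) or 3 (0.0579). Tumors had 1517, 2109, 546 and 989 in TN and 557, 808, 1196 and 1291 in TNP. TN replicate 3 lay below MGN replicate 1, the other 3 TN tumors lay above all MGN glands, and TNP overlapped with MGNP. Cdkn1a was 4.08-fold higher in TN than in MGN (2.03 ± 0.56, adjusted p = 0.0158). The difference of TNP from MGNP was 0.91 ± 0.39 and missed the threshold (adjusted p = 0.0772), but it was 1.31 ± 0.45 (0.0421) without MGNP replicates 2 and 4, and also passed without MGNP replicate 4 (0.0432) or TNP replicate 1 (0.0422). Against MGWT neither tumor group passed, with -0.47 ± 0.46 in TN (adjusted p = 0.41) and -0.80 ± 0.33 in TNP (0.0595). The latter passed in DESeq2 (0.0396) and without MGWT replicate 1 (0.0236) or TNP replicate 3 (0.0439) or 4 (0.0359). The immediate-early and luminal sums given above were also higher in MGWT than in the other glands, and their part in the gland differences was not tested. AC167363.2, annotated on the opposite strand, shares 7.68% of the Cdkn1a exon bases, and the sources used here do not say whether counting used strand.

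Both apoptosis genes rose in tumors against the glands of MMTV-neu mice, while of the 2 only Bbc3 passed in these glands against MGWT. Bax (ENSMUSG00000003873, chr7:45461697-45466898, minus strand) forms pores in the mitochondrial outer membrane. It had 563, 426 and 565 counts in MGWT, 414, 592, 466 and 501 in MGN, and 471, 405, 605 and 395 in MGNP. These 3 gland groups overlapped throughout, and neither MGN (-0.07 ± 0.17, adjusted p = 0.739) nor MGNP (-0.15 ± 0.21, 0.574) passed against MGWT. Tumors had 1539, 1077, 647 and 607 in TN and 640, 690, 956 and 910 in TNP, so every tumor lay above every gland. Bax was 1.84-fold higher in TN than in MGN (log2 difference 0.88 ± 0.30, adjusted p = 0.0364) and 1.70-fold higher in TNP than in MGNP (0.77 ± 0.20, 0.0109). The first call was lost without MGN replicate 1, 3 or 4 or TN replicate 1 or 2 (adjusted p up to 0.0884), and the second without MGNP replicates 2 and 4 (0.56 ± 0.22, 0.0645). Against MGWT Bax was 1.53-fold higher in TNP (0.62 ± 0.19, 0.0166), a call lost without MGWT replicate 2 (0.0659), and TN did not pass (0.81 ± 0.34, 0.0738). The TN difference passed in edgeR (0.0477), DESeq2 (0.0286), with all 5 groups in 1 fit (0.0173), and without TN replicate 3 (0.0497) or 4 (0.0409), and the TNP call was lost with all 5 groups in 1 fit (0.0598). Gm45808, on the same strand, shares 12.2% of the Bax exon bases.

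Bbc3 (ENSMUSG00000002083, chr7:16308393-16318205, plus strand), which encodes the BH3-only protein PUMA, was low in the glands of MMTV-neu mice. It had 205, 222 and 200 counts in MGWT. MGN had 58.6, 100, 77.9 and 95.8, and MGNP 91.6, 50, 149 and 87.8. All 8 of these glands lay below the wild type glands, and Bbc3 was 2.54-fold lower in MGN (log2 difference -1.35 ± 0.23, adjusted p = 0.00128) and 2.35-fold lower in MGNP (-1.23 ± 0.36, 0.0253). The MGNP call was lost without any 1 of the 3 MGWT libraries (0.0709 to 0.0796). Tumors had 210, 193, 101.996 and 236 in TN and 167, 166, 208 and 155 in TNP. Each tumor group lay entirely above its glands. Bbc3 was 2.16-fold higher in TN than in MGN (1.11 ± 0.32, adjusted p = 0.0193) and 1.95-fold higher in TNP than in MGNP (0.96 ± 0.33, 0.0334). The TN call was lost without MGN replicate 1 (0.0525) or TN replicate 4 (0.0506). The TNP call was lost in edgeR (0.0527) and without any 1 library except MGNP replicate 3 (up to 0.0804). It also fell to 0.56 ± 0.28 (0.13) without MGNP replicates 2 and 4. Neither tumor group passed against MGWT (-0.24 ± 0.32 in TN and -0.27 ± 0.18 in TNP).

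Ccng1 (ENSMUSG00000020326, chr11:40748552-40755311, minus strand), whose promoter held the second decamer pair, was lowest in the wild type glands. It had 1734, 1745 and 2054 counts in MGWT and 6195, 3724, 3964 and 3790 in MGN. All other 16 libraries lay above the wild type glands. In MGNP the 4 glands had 5664, 25575, 3049 and 18136 counts, a wide split in which replicates 2 and 4 stood far above all other libraries. These are the libraries with muscle marker scores (mean log2 level of 10 markers) of 17.3 and 16.5, against 14.4 and 9.16 in MGNP replicates 1 and 3. The part of muscle in the Ccng1 level was not tested beyond the adjusted fits given below. Ccng1 was 2.35-fold higher in MGN than in MGWT (log2 difference 1.23 ± 0.19, adjusted p = 0.000813) and 5.14-fold higher in MGNP (2.36 ± 0.70, 0.0281). The MGN call was lost with all 5 groups in 1 fit (0.0609). Without MGNP replicates 2 and 4 the MGNP difference was 1.18 ± 0.26 (adjusted p = 0.00947). The MGNP call was lost without any 1 MGWT library (up to 0.0849) or MGNP replicate 4 (0.0578). It was also lost when adjusted for the muscle score, where the difference was -1.76 ± 0.72 (0.156). Tumors had 7458, 5901, 4082 and 3620 in TN and 3455, 4799, 5768 and 6910 in TNP. Ccng1 was 2.75-fold higher than in MGWT in TN (1.46 ± 0.26, 0.0022) and 2.76-fold higher in TNP (1.46 ± 0.22, 0.000389). The tumors did not pass against their own glands, with 0.23 ± 0.26 for TN and -0.90 ± 0.63 for TNP, though the latter passed in DESeq2 (0.0495) and without MGNP replicate 3 (-1.44 ± 0.49, 0.0377). Without MGNP replicates 2 and 4 it turned to 0.29 ± 0.33 (0.492), and adjusted for the muscle score to 1.37 ± 0.53 (0.0898). The score did not overlap between MGNP and MGWT or between MGNP and TNP, so the adjusted fits extrapolate.

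Eda2r (ENSMUSG00000034457, chrX:97333840-97377216, minus strand), the receptor of ectodysplasin A2, had the widest range of the 10 genes, 24.7-fold from lowest to highest library. It passed in no comparison in the limma test defined above, and only with changed settings or libraries left out. It had 133, 124 and 150 counts in MGWT and 176, 136, 106 and 92.7 in MGN, which overlapped. MGNP had 229, 1036, 68.2 and 790. The 2 muscle-rich libraries were again the highest of all 19, as for Ccng1. TN had 576, 357, 230 and 42, and TNP 122, 248, 387 and 360, so tumors spread across the range of the glands. The difference of MGNP from MGWT was 1.31 ± 0.88 (adjusted p = 0.255), and -0.11 ± 0.48 (0.863) without MGNP replicates 2 and 4. It passed in DESeq2 (0.0213) and without MGNP replicate 3 (0.0201). Adjusted for the muscle score it passed in the other direction (-4.10 ± 0.66, 0.0186). TNP against MGNP gave -0.40 ± 0.82 (0.698), 1.02 ± 0.61 (0.196) without MGNP replicates 2 and 4, and 2.79 ± 0.48 (0.00683) adjusted for the muscle score. In both adjusted fits the score did not overlap between the groups, so they extrapolate. The difference of TNP from MGWT was 0.91 ± 0.38 (0.0587), which passed with TMM scaling (0.0479), in edgeR (0.0256) and DESeq2 (0.00794), with TNP replicates 1 and 2 averaged (0.0118) and without TNP replicate 1 (0.0018). TN against MGN gave 0.77 ± 0.72 (0.39), and 1.54 ± 0.37 (0.0117) without TN replicate 4, the lowest library of all, without which TN also passed against MGWT (0.0161).

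**Figure D2:**
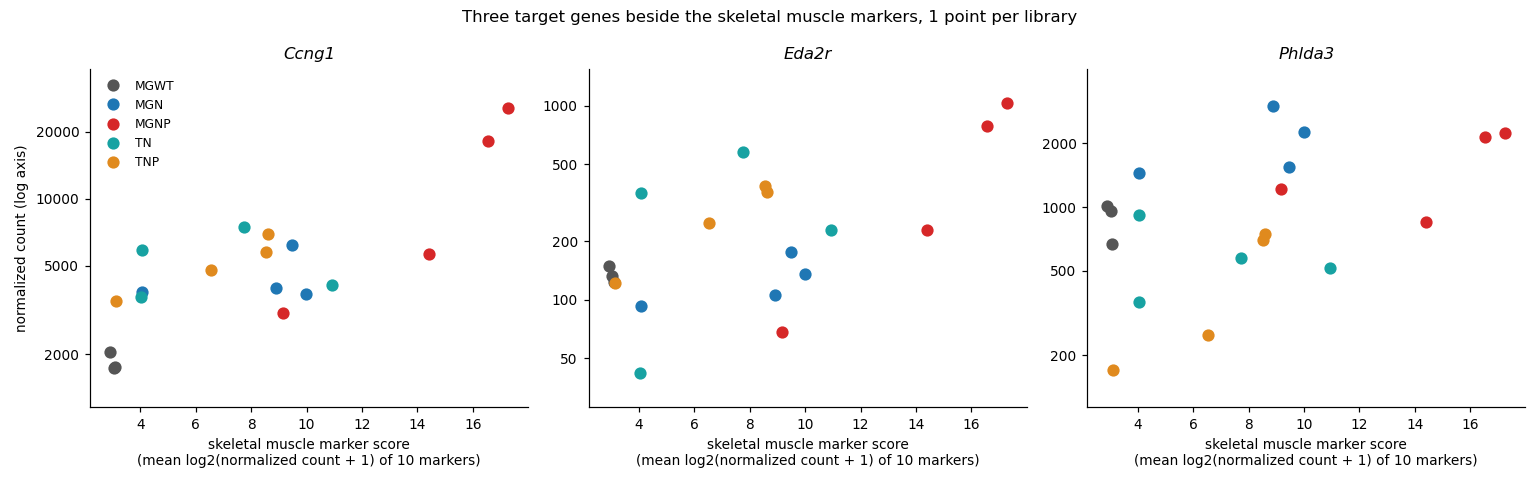
Normalized counts (log axis) of Ccng1, Eda2r and Phlda3 in each of the 19 libraries against the skeletal muscle marker score, the mean log2(normalized count + 1) of 10 muscle genes, colored by group. MGNP replicates 2 and 4, at scores of 17.3 and 16.5, held the highest Ccng1 (25575 and 18136) and Eda2r (1036 and 790), while MGN replicate 3, at 8.90, held the highest Phlda3 (3000.5).

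Phlda3 (ENSMUSG00000041801, chr1:135766119-135769136, plus strand), the AKT inhibitor, ran opposite to Cdkn1a and Bbc3 in MGN against MGWT and in TN against MGN. With all libraries in limma it was the only one of the 10 genes that fell in TN against MGN or in TNP against MGNP, while Trp53 fell in TNP against MGNP without MGNP replicates 2 and 4, as given above. It had 957, 666 and 1008 counts in MGWT and 1545, 2251, 3000.5 and 1451 in MGN. MGNP had 854, 2244, 1219 and 2147. All MGN glands lay above the wild type glands, whereas MGNP replicate 1 lay among them. Phlda3 was 2.29-fold higher in MGN (log2 difference 1.19 ± 0.27, adjusted p = 0.00586), and the MGNP difference of 0.79 ± 0.37 did not pass (0.111). It passed in DESeq2 (0.0493) and without MGNP replicate 1 (0.0269), and was 0.24 ± 0.24 (0.429) without MGNP replicates 2 and 4. The MGN call was lost with all 5 groups in 1 fit (0.0509). TN tumors had 576, 920, 517 and 356 counts, and TNP tumors 170, 250, 697 and 744. Each tumor group lay entirely below its glands. Phlda3 was 3.53-fold lower in TN than in MGN (-1.82 ± 0.33, adjusted p = 0.00204) and 3.87-fold lower in TNP than in MGNP (-1.95 ± 0.53, 0.0131). Without MGNP replicates 2 and 4 the TNP difference was -1.40 ± 0.62 and did not pass (0.0967). The adipocyte sums given above were likewise highest in MGN and MGNP, with all 9 markers at 10 counts or more in each of those libraries, and their part in the Phlda3 differences was not tested. Against MGWT, TNP missed the threshold (-1.16 ± 0.51, 0.07) and passed with all 5 groups in 1 fit (0.0459) and without TNP replicate 3 (0.0301) or 4 (0.027), and TN (-0.63 ± 0.32, 0.13) passed without TN replicate 2 (0.0253).

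Trp53inp1 (ENSMUSG00000028211, chr4:11156431-11174379, plus strand) had 2834, 5301 and 2958 counts in MGWT and 2560, 1669, 1746 and 2774 in MGN. It was 1.66-fold lower in MGN (log2 difference -0.73 ± 0.27, adjusted p = 0.0455). This call was lost without MGWT replicate 2 (0.153) or 3 (0.0572) and without MGN replicate 2 (0.0956) or 3 (0.1), with all 5 groups in 1 fit (0.229) and with no filter on low counts (0.0554). MGNP had 3661, 1539, 3144 and 1876, and its difference from MGWT was -0.56 ± 0.36 (0.237), or -0.06 ± 0.28 (0.867) without replicates 2 and 4. TN tumors had 6144, 1406, 1470 and 971, and TNP tumors 2566, 4013, 5657 and 4587. TN replicate 1 alone exceeded all other libraries, and the other 3 TN tumors were the lowest 3 of the 19. The difference of TN from MGN was -0.19 ± 0.52 (0.782), and -0.76 ± 0.24 (0.0319) without TN replicate 1. Without it TN also passed against MGWT (-1.49 ± 0.29, 0.0048). The difference of TNP from MGNP was 0.75 ± 0.33 and missed the threshold (0.0812), but passed without MGNP replicate 1 (0.0407) or TNP replicate 1 (0.0366), and was 0.25 ± 0.29 (0.493) without MGNP replicates 2 and 4.

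Zmat3 (ENSMUSG00000027663, chr3:32334792-32366014, minus strand) had 1490, 1141 and 1689 counts in MGWT. It had 946, 1013, 668 and 792 in MGN and 659, 691, 669 and 713 in MGNP. Tumors had 974.8, 861, 980 and 794 in TN and 499, 490, 935 and 1014 in TNP. All 16 libraries of MMTV-neu mice lay below the 3 wild type glands. Zmat3 was lower than in MGWT in all 4 groups, 1.68-fold in MGN (log2 difference -0.75 ± 0.19, adjusted p = 0.00906), 2.08-fold in MGNP (-1.06 ± 0.16, 0.00205), 1.58-fold in TN (-0.66 ± 0.18, 0.0144) and 2.05-fold in TNP (-1.03 ± 0.29, 0.0123). Without MGWT replicate 3 the TN and TNP calls were lost (0.0657 and 0.0546), and without MGWT replicate 1 the TN call was (0.0588). Tumors and glands differed little, by 0.09 ± 0.17 for TN against MGN and 0.02 ± 0.26 for TNP against MGNP.

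**Figure D3:**
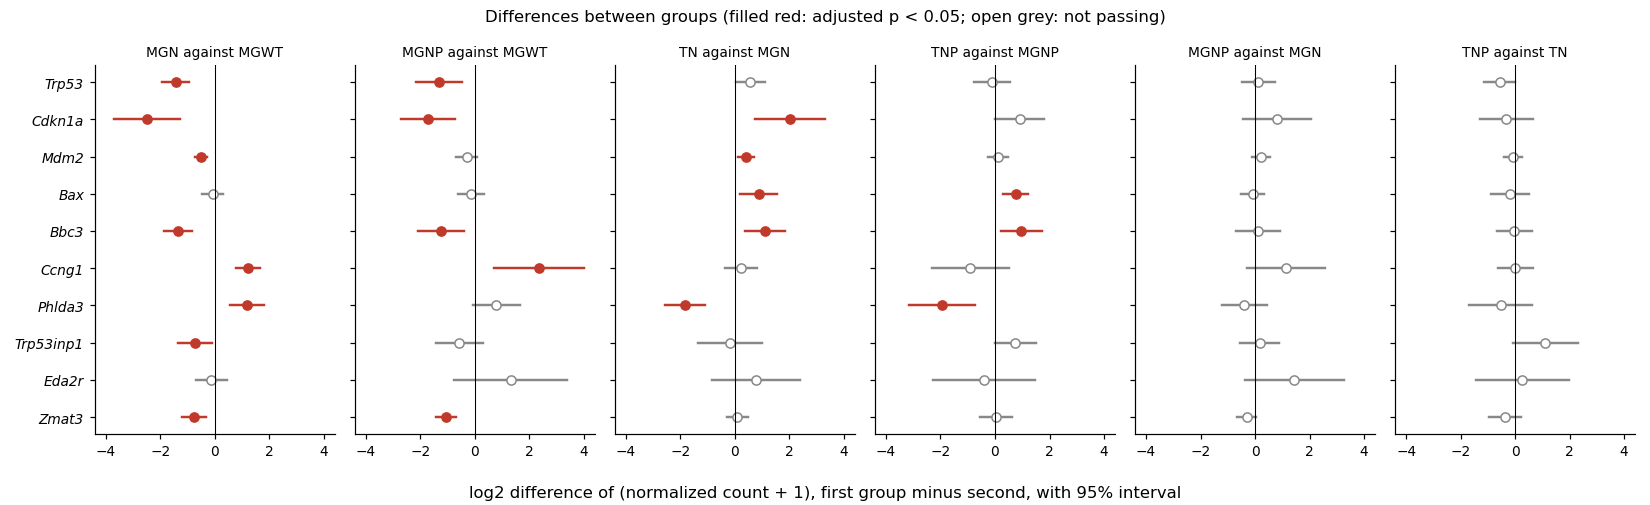
Log2 differences of the 10 genes in 6 comparisons, with 95% intervals, first group minus second, filled where the adjusted p was below 0.05. Cdkn1a fell by 2.50 in MGN against MGWT and rose by 2.03 in TN against MGN, and no gene passed in the 2 comparisons of NP with N tissue.

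The question of the NP and N comparison is whether mutant p53 in fibroblasts went with other levels of the p53 set in the whole tissue. None of the 10 genes passed between MGNP and MGN, where limma passed 0% of 18563 genes, and none passed between TNP and TN, where it passed 0.0421% of 16638 (7 genes). None of the 10 passed at an unadjusted p below 0.05 in either comparison, against 10.5% and 7.27% of all genes. EdgeR and DESeq2 passed none of the 10 either, and the groups overlapped for all 10 in both comparisons, where 6.21% and 4.21% of all genes did not overlap. For Trp53 itself the difference was 0.12 (95% interval -0.50 to 0.74) between MGNP and MGN, and -0.56 (-1.14 to 0.01) between TNP and TN. The interval for Cdkn1a ran from -0.46 to 2.04 in glands and from -1.30 to 0.64 in tumors, and that for Mdm2 from -0.12 to 0.55 and from -0.41 to 0.23. The largest differences were Eda2r in glands (1.44, -0.37 to 3.24), Ccng1 in glands (1.13, -0.31 to 2.57) and Trp53inp1 in tumors (1.11, -0.09 to 2.31). Without the muscle-rich replicates 2 and 4 the first 2 became 0.02 ± 0.51 and -0.05 ± 0.31. Other differences grew in that fit, which has 2 MGNP glands. Trp53 went to 0.62 ± 0.14 (adjusted p = 0.154), Phlda3 from -0.40 ± 0.36 to -0.95 ± 0.32 (0.244), and Trp53inp1 from 0.17 ± 0.31 to 0.67 ± 0.24 (0.262), and none of the 10 passed. Fibroblast scores (mean log2 level of the 9 markers) did not overlap between these gland groups, at 12.5 to 13.6 in MGN and 11.6 to 12.3 in MGNP, and their part in the gland differences was not tested. The intervals stayed within 2-fold in either direction for 6 of the 10 genes in glands and 5 in tumors, and reached beyond it for the others. The 3 MGN samples with the unrecombined p53wm-R172H allele and the 1 MGN sample with Fsp-Cre form the control, so the controls of glands and tumors differ in genotype. TNP replicates 1 and 2 have library names that share a number, and whether they came from 1 mouse is not stated. With their values averaged, the call of Bbc3 between TNP and MGNP was lost (adjusted p = 0.0621).

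The tumor against gland difference was also compared between NP and N directly. In this interaction test no gene of the 10 passed, at an adjusted p of 0.704 or above, while 0% of 19367 genes passed with limma and 7.93% had an unadjusted p below 0.05. None of the 10 genes was among the latter, and edgeR and DESeq2 passed none. Thus Cdkn1a and Mdm2, which rose in TN against MGN and did not pass in TNP against MGNP, were not shown to differ between the genotypes (-1.12 ± 0.73 and -0.30 ± 0.20). For Trp53 the interaction was -0.69 ± 0.39 (0.704), and -1.18 ± 0.34 (0.365) without MGNP replicates 2 and 4.

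Levels can be compared between genes only per exon length. Per kb of exon, Ccng1 was the highest of the 10 genes in MGNP (3732 ± 3019 normalized counts per kb, SD, n = 4), TN (1499 ± 502) and TNP (1490 ± 417) by mean, while in MGN Phlda3 (1323 ± 462) and Ccng1 (1258 ± 339) differed by less than their SD, Phlda3 being the higher in 2 of 4 glands. In MGWT the leading 3, Trp53inp1 (571 ± 215), Phlda3 (562 ± 118) and Ccng1 (525 ± 52), differed by less than their SD. Trp53 stood at 474 ± 144 per kb in MGWT and at 170 ± 14 in MGN. At the low end, Eda2r had 23 ± 2.3 per kb in MGWT and Bbc3 98.3 ± 5.3.

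Other genes of the p53 pathway were read from lists of known members. Of 37 further targets tested, 8 were higher and 13 lower in MGN than in MGWT, and 7 higher and 10 lower in MGNP. These are 56.8% and 45.9% of the list, near the 59.1% and 46.4% of all genes, so the counts are no result about p53 targets. The arrest and stress list had the lowest median, with 6 of 10 genes lower and 1 higher in MGN (median log2 difference -1.47, against 0.02 for all genes) and 5 lower and 1 higher in MGNP (-1.68). These are 70% and 60% of that list, beside the same 59.1% and 46.4% of all genes. Gdf15, a stress-induced cytokine, fell from 184 ± 8.9 counts in MGWT to 8.95 ± 4.9 in MGN. The fall was 21.7-fold (-4.44 ± 0.54, adjusted p = 0.000239), with at most 13 reads in an MGN library. Btg2, an antiproliferative and also immediate-early gene, fell 13.9-fold, from 20578 ± 6017 to 1450 ± 185 (-3.79 ± 0.20, adjusted p = 4.32e-06). Sesn1, a stress-induced inhibitor of mTORC1 signaling, rose 1.89-fold in MGN (0.92 ± 0.14, adjusted p = 0.000932) and 2.22-fold in MGNP (1.15 ± 0.18, 0.00241). Among 10 apoptosis targets, 2 rose and 3 fell in MGN, or 50% of that list against 59.1% of all genes. Perp, a desmosomal and apoptosis gene, was 3.70-fold lower (0.000879), and Triap1, which restrains apoptosis, 1.72-fold higher (0.0017). Of the 6 DNA repair targets Xpc, a damage sensor, alone passed (1.68-fold higher in MGN and 1.49-fold in MGNP, adjusted p = 0.00127 and 0.00562). That is 16.7% of the repair list in each comparison, against 59.1% and 46.4% of all genes.

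In tumors against glands, 8 of the 37 further targets were higher and 6 lower in both TN and TNP. This is 37.8% of the list, where 51.3% (TN) and 55.5% (TNP) of all genes passed. Perp was 5.08-fold higher in TN than in MGN (2.34 ± 0.30, adjusted p = 0.000426) and 5.37-fold higher in TNP than in MGNP (2.43 ± 0.27, 0.000154). Polh, a translesion polymerase, was 2.38-fold and 2.34-fold higher (0.000496 and 0.000384). Gtse1, a cell cycle gene that restrains p53, was 8.27-fold and 6.78-fold higher (0.000453 and 0.000898). Fas, the death receptor, was 2.93-fold and 2.74-fold lower (0.0117 and 0.00341), and Sesn1 2.02-fold and 1.97-fold lower (0.00143 and 0.00263). Perp is also an epithelial gene, and the luminal sums rose with it, from 14303 to 29057 in MGN to 104540 to 187981 in TN.

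Genes that p21 holds down through the DREAM complex, a repressor of cell cycle genes, formed the most uniform list. All 11 were higher in TN than in MGN (median log2 difference 2.94, against -0.05 for all genes) and in TNP than in MGNP (3.18, against -0.07), and none overlapped between the groups. Of all genes, 23.5% were higher and 49.2% did not overlap in TN against MGN, and 26.2% and 52.6% in TNP against MGNP. Cdk1, the mitotic kinase, had 2526 ± 1250 counts in TN and 223 ± 126 in MGN, and Cdc25c, its activating phosphatase, 366 ± 101.5 in TNP and 30.1 ± 30.3 in MGNP. Cdkn1a itself was higher in TN than in MGN as well. Between the glands and MGWT none of the 11 passed (median 0.10 in MGN and -0.48 in MGNP), and none was at an unadjusted p below 0.05, as 63.6% and 54.7% of all genes were.

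Of the 25 regulators of p53, 11 were lower and 2 higher in MGN than in MGWT, and 11 lower and 1 higher in MGNP. These are 52% and 48% of the list, near the 59.1% and 46.4% of all genes, and no test compared the list with other genes. Ppp1r13l, which encodes the inhibitor iASPP, was 11.9-fold lower in MGN and 11.1-fold lower in MGNP (adjusted p = 2.56e-05 and 0.000281). Trp63, the p53 relative of basal epithelium, was 5.65-fold and 4.75-fold lower (0.000156 and 0.000395). The 7 basal markers moved with it, with sums of 55435 to 69188 in MGWT and 8627 to 23013 in the glands of MMTV-neu mice. In tumors against glands 8 regulators rose and 5 fell in TN (24 tested), and 8 rose and 7 fell in TNP (25 tested). These are 54.2% and 60% of the list, near the 51.3% and 55.5% of all genes. Chek1, a checkpoint kinase, was 3.25-fold and 4.43-fold higher (0.00137 and 0.0148). Hipk2, a kinase that phosphorylates p53, was 7.49-fold lower in TN (2.13e-05) and 4.90-fold lower in TNP (0.000335). Cdkn2a, whose p19ARF product blocks MDM2, was 10.1-fold higher in TNP than in MGNP (3.33 ± 0.82, adjusted p = 0.00814). No list had a gene that passed between MGNP and MGN, between TNP and TN, or in the interaction test.

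**Figure D4:**
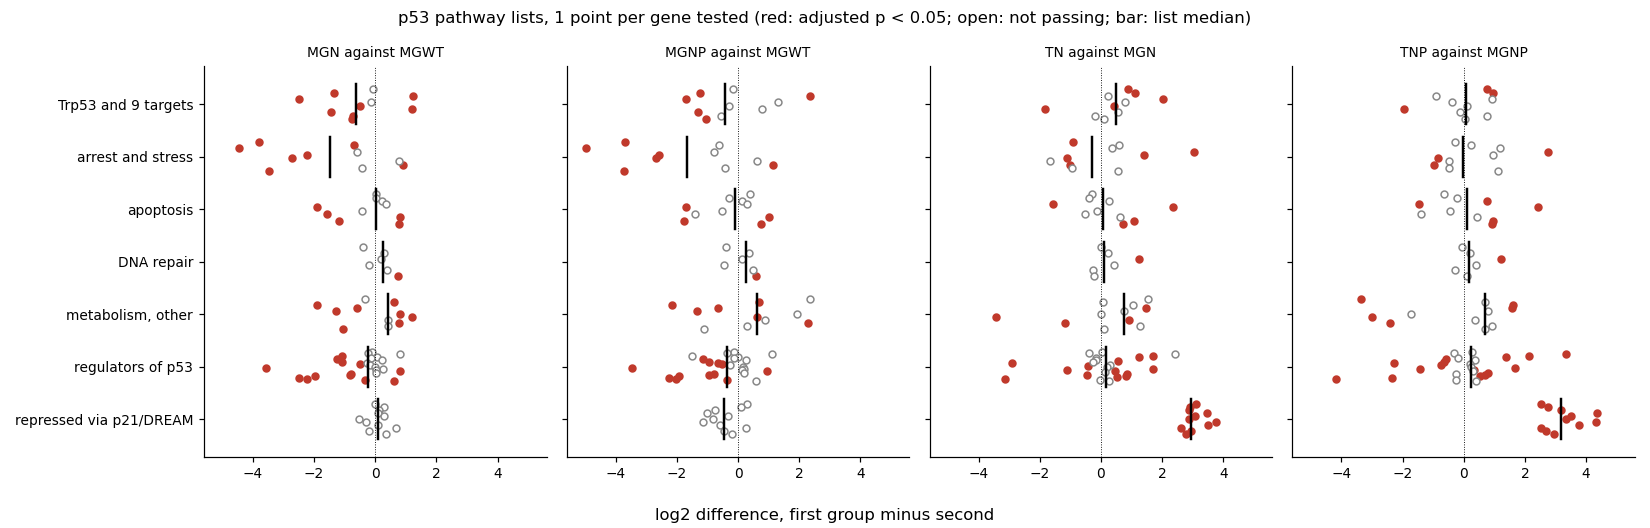
Log2 differences of the tested genes of 7 p53 pathway lists in 4 comparisons, 1 point per gene, red where the adjusted p was below 0.05, with the list median as a bar. The 11 genes repressed through p21 and DREAM lay between 2.63 and 3.78 in TN against MGN and between -0.53 and 0.69 in MGN against MGWT.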

How the data were processed

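Bulk RNA-seq of 19 mouse mammary samples was read from 1 deposited table of DESeq2-normalized counts, a signal that the authors made from 75-bp paired reads aligned to GRCm38 with TopHat2 (2.1.1) and Bowtie2. The labels name a stranded total RNA kit and the study's methods an mRNA kit, and the counting tool, its strand setting and the annotation are not given in the sources used here. Dividing by each library's smallest step gave whole reads for 100% of values (tolerance 0.05 reads). GENCODE vM21 matched 97.97% of 46078 IDs and gave coordinates and exon lengths, and promoters are from RefSeq (GRCm38.p6). Groups follow the sample titles. Each pair of groups was fitted with limma (3.58.1, trend) on log2(normalized count + 1) over genes with at least 10 counts in as many samples as the smaller group, with Benjamini-Hochberg adjustment, and the step was tested on simulated data. The labels do not say that replicates are separate mice, so p-values measure the spread between samples. Alternatives included edgeR (4.0.16) and DESeq2 (1.42.0) on the recovered reads. Named list genes were at most 2 with the largest rise and 2 with the largest fall per list and comparison, among those that passed without overlap. Members and lists were chosen with earlier results of these data known.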

Additional observations from a re-analysis of the deposited data

Results flagged for a closer look

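One value stood apart within its group by Dixon's test. Ccng1 in MGN replicate 1 had 6195.3 normalized counts, against 3724, 3964 and 3790 in the other 3 MGN glands, and its gap to the nearest of them was 0.877 of the group's range on the log2 scale, above the 95% critical value for 4 samples. This gland is the 1 MGN sample labelled MMTV-neu;Fsp-Cre, while the other 3 carry p53wm-R172H/+ without Cre. Its muscle marker score of 9.48 lay within those of the other MGN glands (4.06 to 9.99). In all, 40 combinations of gene and group were tested, and chance flags about 1 in 20. Without this gland the difference of Ccng1 between MGN and MGWT still passed.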

How the results depend on the processing

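For the counts of genes passing, 161 of 178 alternatives lay within 1.5 times the value given. With a 2-fold minimum the counts were 5 (MGN against MGWT), 3 (TN against MGN), 1 (TNP against MGNP) and 1 (TN against MGWT). With all 5 groups in 1 fit, MGN against MGWT gave 5. With the replicate number as a block, MGNP against MGWT and TN against MGN gave 3 each. The replicate block changed other calls too, but same-numbered samples did not deviate together (no group pair had a correlation over 0.1 in every pair), so the numbers are not taken to pair samples. Leaving out 1 library each gave 7 to 8 for MGN against MGWT, 1 to 6 for MGNP against MGWT, 2 to 6 for TN against MGN, 2 to 4 for TNP against MGNP, 1 to 4 for TN against MGWT, 3 to 6 for TNP against MGWT, and 0 for both NP against N comparisons and the interaction.

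With the muscle score as covariate, 1 gene passed in MGNP against MGWT and 1 in TNP against MGNP. Eda2r was the gene that passed in each. In MGNP against MGWT differences then reversed for Trp53 (0.27), Bbc3 (0.53), Ccng1 (-1.76) and Eda2r (-4.10). They also reversed there for Bax (0.72), Phlda3 (-0.41) and Trp53inp1 (0.72). In TNP against MGNP they reversed for Eda2r (2.79) and Ccng1 (1.37). The score did not overlap between MGWT (2.89 to 3.09) and MGNP (9.16 to 17.3), nor between TNP (3.11 to 8.60) and MGNP. Both fits therefore extrapolate. Leaving out MGNP replicates 2 and 4, chosen after seeing the data, gave 6 genes in MGNP against MGWT and 2 in TNP against MGNP, where Trp53 and Cdkn1a passed in place of Bax, Bbc3 and Phlda3. Of 1690 alternatives for single genes, 1500 kept direction and side of the threshold, 70 lost and 46 gained a call (5 of these with the other direction), and 74 changed direction with neither value passing. Over all genes, DESeq2 passed 730 in MGNP against MGN, 120 in TNP against TN and 368 in the interaction, where limma passed 0, 7 and 0, and the 10 genes passed in none. Without MGNP replicate 3 limma passed 326 in MGNP against MGN and 195 in the interaction, and without TN replicate 1 it passed 59 in TNP against TN and 23 in the interaction. TMM scaling moved the median of all genes by 0.10 in TNP against MGNP, and edgeR by 0.12 in TN against MGWT. The lowest level, 35 reads of Bbc3 in MGNP replicate 2, limits its precision.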

Other observations

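The genes whose profile over the 19 libraries was most like that of Trp53 were Sh3bp1, Maz, Unk, Nacc1 and Mdc1, out of 14831 genes compared that had a mean of at least 50 normalized counts. Likeness was the root mean square difference of log2(normalized count + 1), each gene centered on its own mean. It was 0.26 for Sh3bp1 and Maz, 0.28 for Unk, and 0.30 for Nacc1 and Mdc1, against 0.62 for a flat profile. Sh3bp1 had a mean of 1327 counts in MGWT and of 501 in MGN, 565 in MGNP, 657 in TN and 520 in TNP. For Cdkn1a the nearest profiles were those of Glt28d2 (0.65), Tsc22d2 (0.66) and Tnfrsf12a (0.67), against 1.11 for a flat profile. Tnfrsf12a, the receptor of TWEAK, had a mean of 1763 counts in MGWT, 292 in MGN, 389 in MGNP, 1211 in TN and 1072 in TNP.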
